A study of Mus musculus with 12 samples.

Results

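The genes described here build and copy DNA in dividing cells: the enzymes that make deoxynucleotides, the factors that mark and license replication origins, the MCM helicase and the factors that fire it, the polymerases, clamp and ligase of the fork, and the chromatin and methylation factors that follow it. A list of 49 mouse genes was taken, and a gene counted as measured where a probe assigned to its symbol alone was above background (detection p under 0.01) on at least 4 of the 12 arrays. That left 46 of the 49, out of 9153 genes measured by the same rule. The other 3 listed genes, Gmnn with 1 probe, Pola1 with 1 probe and Pole2 with 2 probes, were above background on 0 arrays and have no value.

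The cells were MC3T3 sc4, a single line of mouse calvarial osteoblasts kept for 4 days in osteogenic medium with beta glycerol phosphate at 4 mM and ascorbic acid at 50 µg/ml. There were 3 groups of 4 arrays: SAHA for 6 h (arrays 9 to 12), SAHA for 2 h (arrays 5 to 8) and the solvent DMSO (arrays 1 to 4), where the array numbers only name the arrays. SAHA, also called vorinostat, inhibits histone deacetylases, the enzymes that take acetyl groups off histones and other proteins, and was given at 20 µM. All cells were freed with collagenase for 40 min, with SAHA or solvent still present, before 200 ng of total RNA was amplified and hybridised to Illumina bead arrays. The written protocol names only the shorter exposure, and how long the DMSO cells were held is not given. The labels do not say if each of the 4 samples had a culture of its own, and the p-values therefore measure only how far these samples spread, which may be technical.

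DNA is copied once per cell cycle. Origins are bound by the origin recognition complex and loaded with inactive MCM helicases in G1, and kinases then fire them in S phase with Cdc45 and the GINS complex. Supply of deoxynucleotides is limited by ribonucleotide reductase and by the thymidylate enzymes, and many of these genes are textbook targets of E2F transcription factors, whose complexes with the retinoblastoma family recruit histone deacetylases. In osteoblasts proliferation and replication decline as cells differentiate.

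On the arrays, normalised values are given as log2 intensity, so 1 unit is a doubling, and values of different probes are not set against each other. Between 14904 and 16065 probes were above background per array, and the number of arrays, 4 a group, limits the precision. Any pair of arrays within a group differed with an SD of 0.131 to 0.219 log2 units over the 46 genes, and pairs from different groups with an SD of 0.361 to 0.777. The labelled cell type was checked on 10 osteoblast markers, of which 8 were measured. Transcripts of type I collagen (Col1a1, Col1a2) and Sparc were above background on every array, and Sp7 and Alpl fell at 6 h while the other 6 did not pass. No adipocyte marker of 6 was above background on any array (Cfd had no probe), and Acan, Col10a1, Matn3, Myod1, Myf5, Ptprc and Tyrobp were above background on 0 arrays. Other chondrocyte and muscle markers of the same lists were detected. Sox9, Col2a1 and Des were above background on 12 arrays, Acta1 and Mylpf on 9, Comp on 7 and Myog on 5. The markers therefore do not exclude other cell types. Macrophage and blood markers moved with the treatment: the 3 measured of 6, Cd14, Csf1r (above background on 0 of 4 arrays after SAHA 6 h) and Lyz2, all fell at 6 h. Csf1r was above background on 4 arrays in all and so met the detection rule only through DMSO or 2 h arrays. The direction of its call is thus not independent of that rule. The summed intensity of the 3 was 277.2 to 345.3 after SAHA 6 h, 396.5 to 413.9 after SAHA 2 h and 495.3 to 590.8 in DMSO. The 3 measured chondrocyte markers summed to 3211 to 3723 after SAHA 6 h, 3296 to 3759 after SAHA 2 h and 3787 to 4259 in DMSO, and the 4 measured muscle markers to 388 to 431.8 after SAHA 6 h, 304.7 to 348.9 after SAHA 2 h and 386.1 to 417.6 in DMSO. Their part in the results below was not tested. In these bulk samples, fewer cells of a type and less RNA per cell cannot be told apart.

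After 6 h of SAHA the set split in both directions. The thymidine and ribonucleotide reductase genes Tk1, Rrm2 and Rrm1 fell by 2-fold or more, as did the kinase regulator Dbf4 on the brightest of its 3 probes but not on the other 2, while Rpa1, Prim2 and Gins4 more than doubled, and 4 of the 6 MCM genes did not pass. Of the 46 genes, 21 were higher and 13 lower than in DMSO at an adjusted p under 0.05, and 12 did not pass. That is 73.9% called, where 77.4% of all 9153 genes were called, with 38.9% higher and 38.5% lower. By size, 11 were called at least 1.5-fold higher and 6 at least 1.5-fold lower, against 21.5% and 20.6% of all genes. The median change over the 46 was 0.0976 log2 units, beside 0.00826 over all genes, and the median size without sign was 0.415, beside 0.483. Without normalisation between arrays 11 of the 34 calls at 6 h did not pass, those of Pcna, Mcm3, Mcm10, Gins1, Orc2, Pold2, Prim1, Rfc4, Rpa3, Fen1 and Dnmt1 (adjusted p 0.05101 to 0.4313), their directions staying. The total share called is near that of all genes, so the count of calls is not a result about this set. By direction the 46 were less even, with 21 higher and 13 lower, than all genes, and this difference was not tested. The paragraphs below describe which of its genes did what.

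After 2 h, 12 of the 46 were higher and 14 lower than in DMSO, 56.5% called where 58.5% of all genes were (27.8% higher and 30.7% lower). Orc1, Orc6 and Rpa1 were the 3 called at least 1.5-fold higher, and Rrm2, Tk1 and Dbf4 the 3 called at least 1.5-fold lower, against 9.79% and 10.8% of all genes. Between the exposures, 20 were higher at 6 h than at 2 h and 9 lower, 63% called where 62.7% of all genes were (34.3% higher and 28.4% lower). Here Prim2, Gins4 and Rpa1 were the 3 called at least 1.5-fold higher and Tk1, Rrm2 and Rrm1 the 3 called at least 1.5-fold lower, against 10.2% and 11% of all genes. The comparisons with DMSO share the same 4 DMSO arrays, and those of 2 h and 6 h share arrays with the third, so their values are set side by side and not counted as independent.

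**Figure D1:**
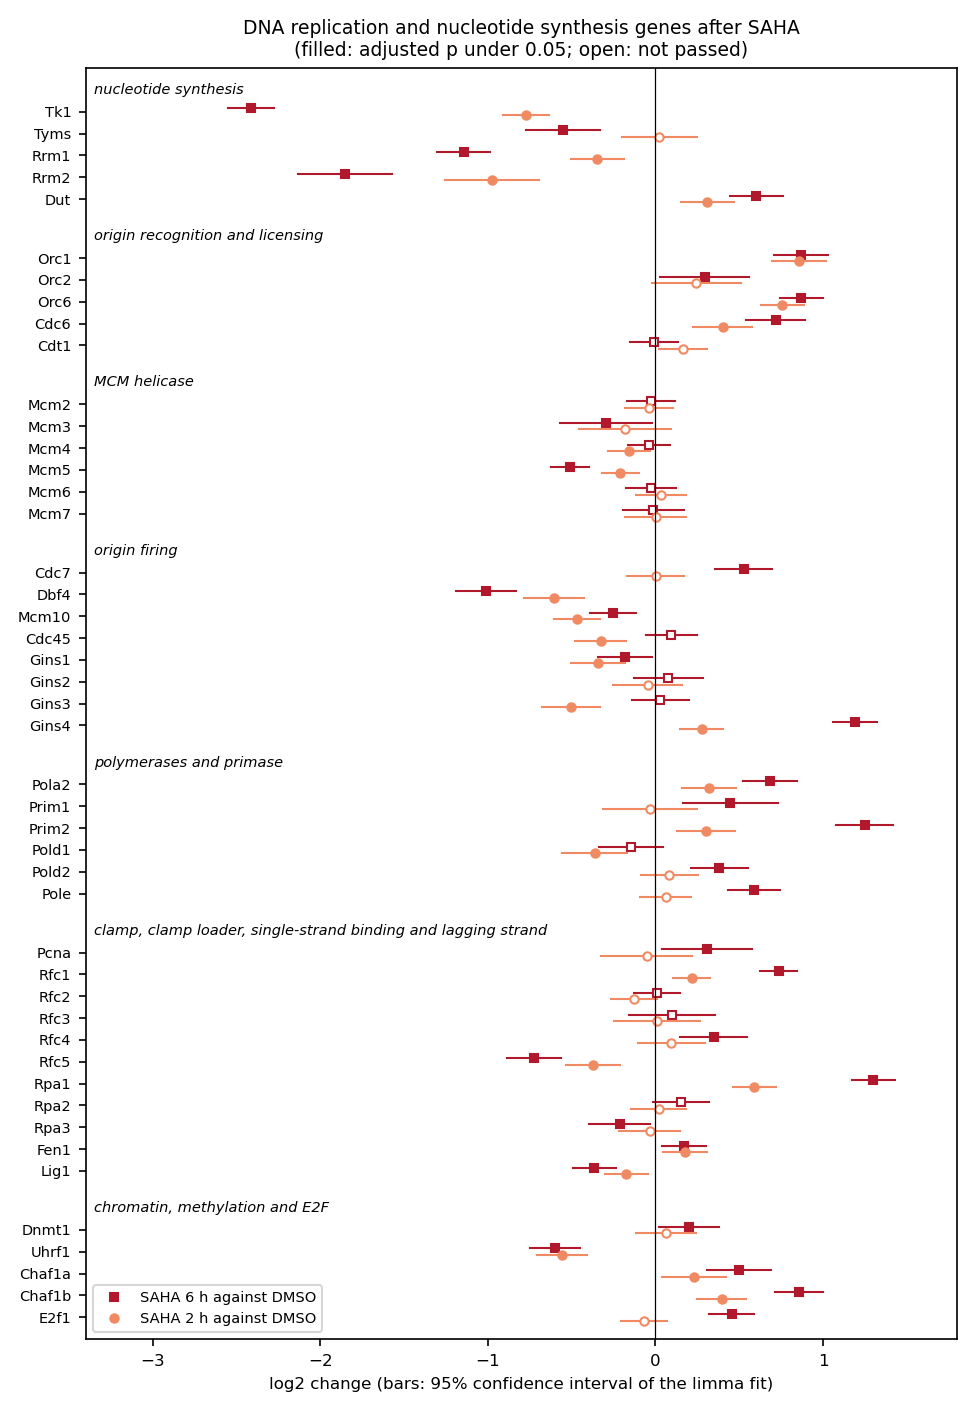
Log2 change of the 46 measured genes after SAHA 6 h (squares) and SAHA 2 h (circles) against DMSO, grouped by role, with bars for the 95% confidence interval of the limma fit, filled where the adjusted p is under 0.05. Tk1, Rrm2, Rrm1 and Dbf4 (by its brightest probe) lie farthest left at 6 h, Rpa1, Prim2 and Gins4 farthest right, and 4 of the 6 MCM subunits sit on the zero line.

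**Figure D2:**
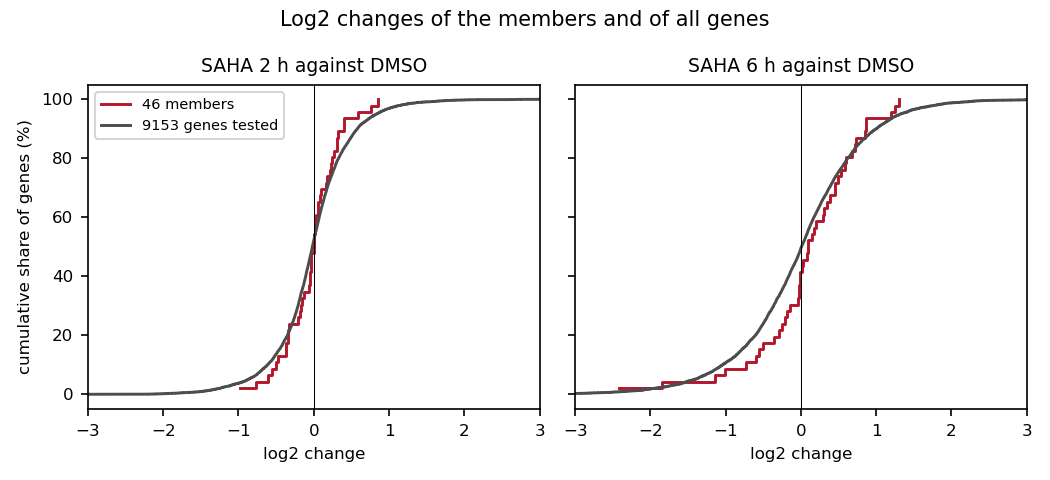
Cumulative share of genes (percent) by log2 change, for the 46 measured genes and all 9153 genes, after SAHA 2 h and SAHA 6 h against DMSO. The curves lie close together, with a median of 0.0976 for the 46 genes and 0.00826 for all genes at 6 h.

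Nucleotide supply was the role in which the values dropped most. Of the 5 measured genes, Tk1, Rrm1, Rrm2 and Tyms fell at 6 h and Dut rose, where 38.5% of all genes fell and 38.9% rose. The genes are few and were chosen with earlier results known, so these counts are not a result about the role. Tk1, the cytosolic thymidine kinase of the salvage pathway, stood at 9.87, 9.69, 9.70 and 9.58 log2 units after SAHA 6 h, at 11.41, 11.29, 11.34 and 11.36 after SAHA 2 h, and at 12.06, 12.09, 12.18 and 12.15 in DMSO. The 3 groups did not overlap: the 6 h arrays lay below the 2 h arrays, and these below DMSO. The change was -2.41 ± 0.06 log2 units (SE) at 6 h, a 5.32-fold lower level (adjusted p 1.42e-12), and -0.77 ± 0.06 at 2 h (adjusted p 1.75e-07). A further Tk1 probe gave -1.98 at 6 h.

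Rrm2, the small subunit of ribonucleotide reductase, which makes deoxynucleotides from ribonucleotides, had 7.28, 7.36, 7.85 and 7.79 after SAHA 6 h, 8.25, 8.44, 8.44 and 8.66 after SAHA 2 h, and 9.39, 9.23, 9.55 and 9.51 in DMSO. All 6 h arrays lay below all 2 h arrays, and these below all DMSO arrays. It was 3.61-fold lower at 6 h, -1.85 ± 0.13 (adjusted p 1.225e-08), and already -0.97 ± 0.13 at 2 h (adjusted p 2.042e-05). A further Rrm2 probe, above background on all 12 arrays, gave -2.11 at 6 h. Rrm1, the large subunit of the same enzyme, had 11.05, 10.89, 10.86 and 10.86 after SAHA 6 h, 11.59, 11.69, 11.80 and 11.76 after SAHA 2 h, and 12.15, 11.89, 12.12 and 12.09 in DMSO. Its groups were again fully apart, with changes of -1.14 ± 0.07 at 6 h (2.21-fold lower, adjusted p 4.858e-09) and -0.35 ± 0.07 at 2 h (adjusted p 0.001087). The 2 h change of Rrm1 was -0.09 with an adjusted p of 0.7223 when the arrays were not normalised to each other, a setting whose general shift is described further on.

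Tyms, thymidylate synthase, which makes the thymine nucleotide from its uracil counterpart, followed a later course. Its values were 10.36, 10.23, 9.91 and 10.12 after SAHA 6 h, 10.83, 10.82, 10.51 and 10.75 after SAHA 2 h, and 10.78, 10.85, 10.54 and 10.64 in DMSO. The 2 h and DMSO arrays overlapped, at a difference of 0.02 log2 units (95% confidence interval -0.20 to 0.25), and all 6 h arrays lay below both. The change between the exposures was -0.57 ± 0.10 (adjusted p 0.0002709) and that against DMSO at 6 h -0.55 ± 0.10 (adjusted p 0.0002309). Dut, the dUTPase that keeps uracil out of DNA, was the member of this role that rose: it averaged 9.28 ± 0.15 after SAHA 6 h, 8.99 ± 0.07 after SAHA 2 h and 8.68 ± 0.07 in DMSO (SD, n = 4 each), with changes of 0.60 ± 0.07 at 6 h (adjusted p 4.068e-06) and 0.31 ± 0.07 at 2 h (adjusted p 0.002481). A dimmer Dut probe gave 0.30 at 6 h, and 0.18 at 2 h and 0.11 for 6 h against 2 h without passing.

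**Figure D3:**
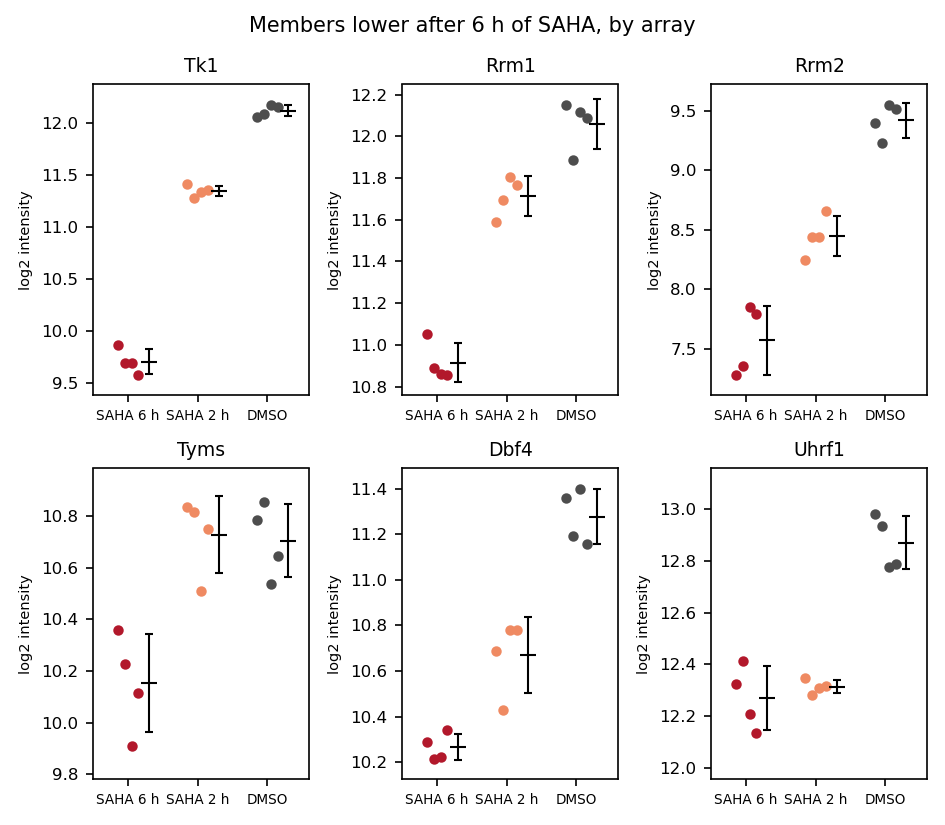
Log2 intensity on each array after SAHA 6 h, SAHA 2 h and DMSO for 6 genes that were lower at 6 h, with the mean and SD of the 4 arrays beside the points. Tk1, Rrm1, Rrm2 and Dbf4 step down with exposure, Tyms is lower in the 6 h arrays (9.91 to 10.36) than in both other groups, and the SAHA groups of Uhrf1 overlap, both below DMSO.

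Among the origin recognition and licensing genes, none was called lower than in DMSO at either exposure. Of 5 measured genes, 4 rose at 6 h, where 38.9% of all genes did, and 3 had risen at 2 h, where 27.8% did. Orc2, which was near background, is among the 4. The genes are few and were chosen with earlier results known, so these counts are not a result about the role. Orc1, the largest subunit of the origin recognition complex, stood at 7.05, 7.13, 6.97 and 6.90 after SAHA 6 h, at 7.11, 6.81, 7.10 and 6.99 after SAHA 2 h, and at 6.07, 6.12, 6.18 and 6.22 in DMSO. The SAHA arrays overlapped each other and all lay above DMSO. The change was 0.87 ± 0.08 at 6 h (1.83-fold, adjusted p 1.202e-07) and 0.86 ± 0.08 at 2 h (adjusted p 3.655e-07), and the exposures differed by 0.01 (95% confidence interval -0.15 to 0.17). In DMSO Orc1 was only just above background, with detection p-values of 0.0032 to 0.0096 where the limit is 0.01. The size of its change depended on the processing, while both calls held. Across the alternatives run it was 0.49 to 0.91 log2 units at 6 h and 0.49 to 1.02 at 2 h.

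Orc6, the smallest subunit, had 12.35, 12.25, 12.11 and 12.19 after SAHA 6 h, 12.21, 12.06, 12.10 and 12.07 after SAHA 2 h, and 11.38, 11.40, 11.31 and 11.32 in DMSO. It too was above DMSO on all 8 SAHA arrays, by 0.87 ± 0.06 at 6 h (adjusted p 1.084e-08) and 0.76 ± 0.06 at 2 h (adjusted p 1.355e-07). Orc2 was close to background: 2 of 4 arrays were above it after SAHA 6 h, 2 of 4 after SAHA 2 h and 0 of 4 in DMSO. The gene thus met the detection rule only through SAHA arrays, so the direction of its call is not independent of that rule. Its measured means were 6.02 after SAHA 6 h and 5.73 in DMSO (adjusted p 0.04249, from the fit on measured values). Since DMSO has only a bound, the measured 6 h mean was also set against that bound, and was 1.015-fold higher. For the bound DMSO is set, array by array, at the lowest value of any detected probe where the probe itself lies below that. As only 2 of the 4 arrays at 6 h were above background, this value is not a lower limit of the change. Without array 1, 4, 6, 7, 10 or 11 the Orc2 call was lost (adjusted p 0.05115 to 0.1433).

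Cdc6, which loads the helicase together with Cdt1, had 9.79, 10.04, 9.91 and 9.83 after SAHA 6 h, 9.70, 9.69, 9.50 and 9.39 after SAHA 2 h, and 9.15, 9.27, 9.21 and 9.07 in DMSO. The groups did not overlap and stood in the order of exposure, at 0.72 ± 0.08 at 6 h (1.65-fold higher, adjusted p 1.997e-06) and 0.40 ± 0.08 at 2 h (adjusted p 0.0008101). Cdt1 had 10.97, 11.22, 11.08 and 11.06 after SAHA 6 h, 11.28, 11.29, 11.27 and 11.17 after SAHA 2 h, and 10.95, 11.16, 11.11 and 11.14 in DMSO. Its 2 h arrays lay above all DMSO arrays, by 0.16 ± 0.07, and did not pass (adjusted p 0.05098). The change passed in 12 of the 26 alternatives run. Among these were median scaling (adjusted p 0.02084), no background correction, and leaving out array 2, 8, 9 or 10 (adjusted p 0.03485 to 0.04654). At 6 h Cdt1 differed from DMSO by less than the spread (95% confidence interval -0.15 to 0.13), and its fall against 2 h of -0.17 (adjusted p 0.03742; 0.0744 with median scaling) was lost without array 5, 6, 7, 9, 11 or 12 (adjusted p 0.06805 to 0.1072).

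The subunits of the MCM helicase, which unwinds DNA ahead of the fork, changed least of the roles at 6 h. Their median size without sign was 0.0339 log2 units, beside 0.483 over all genes. At 6 h, Mcm5 and Mcm3 fell and the other 4 of 6 did not pass, where 38.5% of all genes fell and 77.4% were called. With so few genes, chosen with earlier results known, these counts are not a result about the role. Mcm5 had 11.62, 11.56, 11.61 and 11.53 after SAHA 6 h, 11.92, 11.88, 11.87 and 11.85 after SAHA 2 h, and 12.02, 12.18, 12.04 and 12.12 in DMSO. All 3 groups were apart. Its change was -0.51 ± 0.05 at 6 h (1.42-fold lower, adjusted p 7.059e-07), and -0.21 ± 0.05 at 2 h (adjusted p 0.003565), a direction that turned to 0.05 without normalisation between arrays and a call that was lost with median scaling (adjusted p 0.06962).

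Mcm3 had 8.47, 8.02, 8.03 and 7.86 after SAHA 6 h, 8.33, 8.28, 8.10 and 8.12 after SAHA 2 h, and 8.44, 8.63, 8.12 and 8.35 in DMSO. These groups overlapped, with array 9 inside the DMSO range, and the change of -0.29 ± 0.13 at 6 h (adjusted p 0.04858) kept its call only without array 3 or array 9 (adjusted p 0.05345 to 0.1509 without any other array). Mcm4 had 13.03, 12.99, 12.97 and 12.96 after SAHA 6 h, 12.98, 12.79, 12.90 and 12.82 after SAHA 2 h, and 13.08, 13.08, 13.03 and 12.93 in DMSO. It was lower at 2 h by a small step, -0.16 ± 0.06 (adjusted p 0.03381), in overlapping groups. That call was lost without array 1, 2, 3, 6 or 8 (adjusted p 0.06082 to 0.103), and its direction turned to 0.10 without normalisation between arrays.

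Mcm2, Mcm6 and Mcm7 passed in none of the 3 comparisons, although Mcm6 was lower at 6 h than at 2 h on its dimmest probe (-0.22, adjusted p 0.02871) and on the mean of its probes (-0.15, adjusted p 0.03202). Mcm2 had 10.82, 10.63, 10.75 and 10.90 after SAHA 6 h, 10.75, 10.69, 10.83 and 10.77 after SAHA 2 h, and 10.75, 10.74, 10.80 and 10.91 in DMSO. Mcm6 had 11.80, 12.02, 11.82 and 11.74 after SAHA 6 h, 11.92, 11.85, 11.94 and 11.92 after SAHA 2 h, and 11.90, 11.97, 11.87 and 11.75 in DMSO. Mcm7 had 9.78, 9.79, 9.71 and 9.74 after SAHA 6 h, 9.68, 9.75, 9.71 and 9.95 after SAHA 2 h, and 9.61, 9.64, 9.99 and 9.83 in DMSO. In each of the 3 genes all groups overlapped. The 95% confidence interval of the change at 6 h ran from -0.17 to 0.12 for Mcm2, from -0.17 to 0.12 for Mcm6, from -0.20 to 0.17 for Mcm7 and from -0.17 to 0.09 for Mcm4, so changes of the size seen in Mcm5 lie outside these intervals.

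RefSeq promoters (GRCm38.p6, 250 bases before to 50 after the start) were found for 41 of the 49 listed genes. They were searched on both strands for the E2F motif in the forms TTTGGCGC, TTTCGCGC, TTTCCCGC and TTTGCCGC, which can overlap each other on opposite strands. At least 1 of these stood in the promoters of 15 of the 41 genes (36.6%), where 2.6% of 27025 genes have one in a window of the same length. For the CCAAT box, CCAAT on either strand, the shares were 61% and 41.1%. Stretches are printed for 2 genes that rose at 6 h, for Mcm5, which fell, and for Mcm6, which did not pass. The stretches come from genes picked among those with a match, and their capitals mark the E2F matches. They are Mcm6 at chr1:128359715-128359845 on the minus strand, Mcm5 at chr8:75109326-75109397 on the plus strand, Cdc6 at chr11:98907983-98908050 on the plus strand and Orc1 at chr4:108579397-108579464 on the plus strand, each 5′ to 3′ on the gene's strand.
Mcm6: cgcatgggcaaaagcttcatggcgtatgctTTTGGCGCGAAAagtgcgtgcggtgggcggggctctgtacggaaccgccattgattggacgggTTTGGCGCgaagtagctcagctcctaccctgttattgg
Mcm5: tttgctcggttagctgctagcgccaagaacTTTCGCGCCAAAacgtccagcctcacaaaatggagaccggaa
Cdc6: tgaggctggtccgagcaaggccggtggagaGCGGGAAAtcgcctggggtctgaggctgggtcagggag
Orc1: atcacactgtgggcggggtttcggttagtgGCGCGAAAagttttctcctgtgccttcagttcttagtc
The long run of capitals in Mcm5, and the first in Mcm6, hold overlapping matches on both strands. Of the measured genes with a promoter, a match was found in 3 of the 18 that rose at 6 h (Cdc6, Orc1 and Dnmt1), in 4 of the 12 that fell (Mcm3, Mcm5, Lig1 and Uhrf1) and in 6 of the 9 that did not pass (Mcm6, Mcm7, Cdt1, Gins3, Pold1 and Rfc3). A match is a description of the sequence and no evidence of binding, and the groups are small.

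The 8 genes that fire origins did not move as a block, and Cdc45 and Gins3 were low at 2 h and higher again at 6 h. At 2 h, 5 of the 8 fell (Dbf4, Mcm10, Cdc45, Gins1 and Gins3) and Gins4 rose. At 6 h, Dbf4, Mcm10 and Gins1 were lower and Gins4 and Cdc7 higher. Of all genes, 30.7% fell and 27.8% rose at 2 h, and 38.5% fell and 38.9% rose at 6 h. Dbf4, the regulatory subunit that activates the kinase Cdc7, had 10.29, 10.22, 10.22 and 10.34 after SAHA 6 h, 10.69, 10.43, 10.78 and 10.78 after SAHA 2 h, and 11.36, 11.19, 11.40 and 11.16 in DMSO. The groups were apart and stepped down with exposure. Its change was -1.01 ± 0.08 at 6 h (2.01-fold lower, adjusted p 6.922e-08) and -0.61 ± 0.08 at 2 h (adjusted p 2.687e-05). This rests on its brightest probe: the other 2 Dbf4 probes gave -0.20 and -0.23 at 6 h and 0.02 and 0.21 at 2 h, and none of these 4 values passed.

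Cdc7, the kinase itself, averaged 10.35 ± 0.14 after SAHA 6 h, 9.82 ± 0.12 after SAHA 2 h and 9.82 ± 0.08 in DMSO (SD, n = 4 each). It rose at 6 h by 0.53 ± 0.08 (adjusted p 2.957e-05), with all 6 h arrays above the rest, and at 2 h its interval spanned -0.17 to 0.17. The brightest probes for the kinase and for its regulator thus moved in opposite directions at 6 h. Gins4, a subunit of the GINS complex, had 13.16, 13.13, 12.96 and 13.04 after SAHA 6 h, 12.23, 12.22, 12.08 and 12.09 after SAHA 2 h, and 11.84, 11.92, 11.86 and 11.91 in DMSO. Its groups were apart, with a change of 1.19 ± 0.06 at 6 h (2.28-fold, adjusted p 4.103e-10), 0.28 ± 0.06 at 2 h (adjusted p 0.001336) and 0.92 ± 0.06 between the exposures.

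The other GINS subunits did not share this course. Gins3 averaged 8.21 ± 0.02 after SAHA 6 h, 7.67 ± 0.10 after SAHA 2 h and 8.18 ± 0.17 in DMSO (SD, n = 4 each), so that the 2 h arrays (7.55 to 7.77) lay below every other array. It fell by 0.50 at 2 h (adjusted p 9.264e-05) and was 0.53 ± 0.08 higher at 6 h than at 2 h (adjusted p 5.489e-05). Gins1 fell at 2 h by 0.34 (adjusted p 0.001299) and at 6 h by 0.18 (adjusted p 0.04138), the call at 6 h being lost without array 2, 4, 5, 9, 10 or 12 (adjusted p 0.05025 to 0.1349). Gins2 passed in no comparison, with a 95% confidence interval of -0.13 to 0.28 at 6 h.

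Cdc45, which joins GINS and the MCM ring to form the active helicase, was likewise low in the 2 h arrays. It averaged 9.64 ± 0.09 after SAHA 6 h, 9.22 ± 0.09 after SAHA 2 h and 9.54 ± 0.10 in DMSO (SD, n = 4 each), and the 2 h arrays did not overlap either of the other groups. The change was -0.33 ± 0.07 at 2 h (adjusted p 0.001119), 0.10 at 6 h (95% confidence interval -0.05 to 0.25) and 0.42 ± 0.07 between the exposures (adjusted p 0.0001345). Mcm10, which helps to activate the helicase, averaged 10.28 ± 0.06 after SAHA 6 h, 10.06 ± 0.12 after SAHA 2 h and 10.53 ± 0.04 in DMSO (SD, n = 4 each). It fell by 0.47 at 2 h and by 0.25 at 6 h, with the 6 h arrays between the other groups (adjusted p 0.1539 at 6 h without normalisation between arrays); a dimmer probe gave -0.25 at 2 h and -0.23 at 6 h without passing.

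Without normalisation between arrays the median of all genes moved to 0.185 at 2 h, and the 2 h calls of Dbf4, Cdc45, Gins1, Gins3 and Mcm10 were lost (adjusted p 0.06941 to 0.5061), their directions staying negative. In that setting the 6 h against 2 h difference of Cdc45 was 0.18 and that of Gins3 0.29, neither passing, against a median of -0.199 over all genes, and that of Mcm10 turned to -0.04.

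**Figure D4:**
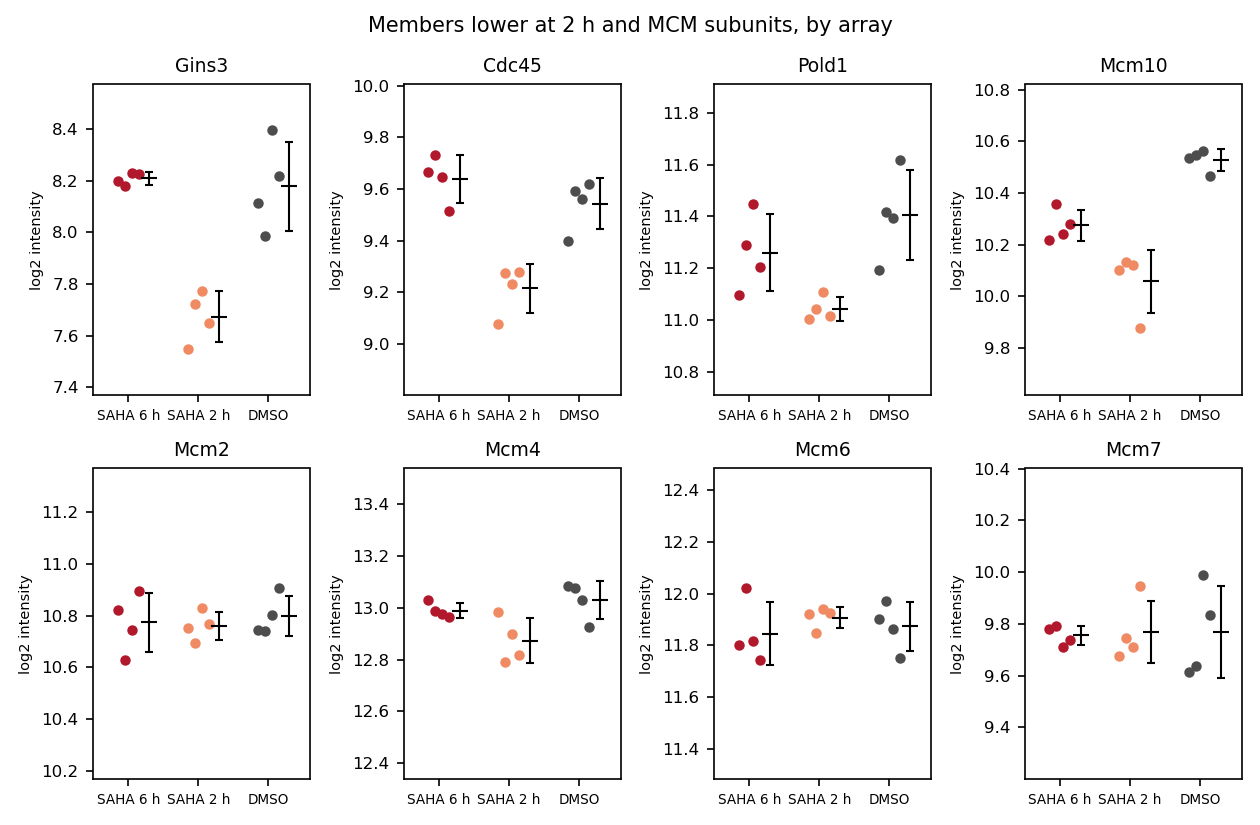
Log2 intensity on each array after SAHA 6 h, SAHA 2 h and DMSO for 4 genes called lower at 2 h (top) and 4 MCM subunits (bottom), with the mean and SD of the 4 arrays beside the points and axes of equal length. The 2 h arrays are the lowest group for Gins3 (7.55 to 7.77) and Cdc45, and the groups overlap for Mcm2, Mcm6 and Mcm7.

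Among the 6 measured polymerase and primase genes, 5 rose at 6 h and none fell, where 38.9% of all genes rose and 38.5% fell. All 6 were called higher at 6 h than at 2 h, as were 34.3% of all genes. The genes are few and were chosen with earlier results known, so these counts are not a result about the role. Without normalisation between arrays Prim2 kept the 6 h against 2 h call and the other 5 lost it (adjusted p 0.2369 to 0.9177). Prim2, the large subunit of the primase that lays down RNA primers, had 10.78, 10.55, 10.81 and 10.87 after SAHA 6 h, 9.69, 9.74, 9.93 and 9.87 after SAHA 2 h, and 9.43, 9.45, 9.63 and 9.51 in DMSO. The groups did not overlap, and most of the change came after 2 h. It was 1.25 ± 0.08 at 6 h (2.38-fold, adjusted p 4.62e-09), where its other probe gave 1.26, and 0.30 ± 0.08 at 2 h (adjusted p 0.004937). Prim1, the catalytic primase subunit, was 0.45 ± 0.13 higher at 6 h (adjusted p 0.006372; 0.05101 without normalisation between arrays).

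Pola2, the regulatory subunit of DNA polymerase alpha, averaged 10.64 ± 0.10 after SAHA 6 h, 10.27 ± 0.12 after SAHA 2 h and 9.95 ± 0.09 in DMSO (SD, n = 4 each), and rose at both exposures, by 0.68 ± 0.08 at 6 h (adjusted p 1.258e-06) and 0.32 ± 0.08 at 2 h (adjusted p 0.002164). Pole, the catalytic subunit of the leading-strand polymerase epsilon, stood between 9.36 and 9.44 after SAHA 6 h, between 8.66 and 9.05 after SAHA 2 h and between 8.77 and 8.80 in DMSO. Its 6 h arrays were apart from all others, at 0.59 ± 0.07 (1.504-fold, adjusted p 3.502e-06), while the 2 h change had an interval of -0.09 to 0.21. Pold2, the second subunit of the lagging-strand polymerase delta, rose by 0.38 at 6 h (adjusted p 0.0005473; 0.07811 without normalisation between arrays). Pold1, the catalytic subunit of the same enzyme, did not: it fell by 0.36 at 2 h (adjusted p 0.003059; -0.15 and an adjusted p of 0.5421 without normalisation between arrays) and was -0.14 from DMSO at 6 h (95% confidence interval -0.34 to 0.05). The higher level of Pold1 at 6 h than at 2 h, 0.22 (adjusted p 0.04602), did not hold when array 2, 3, 5, 6, 7, 8, 10, 11 or 12 was left out (9 of the 12, adjusted p 0.05202 to 0.1455) and turned to -0.03 without normalisation between arrays.

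Of the 11 genes for the clamp, its loader, the single-strand binding complex and lagging-strand processing, 5 rose and 3 fell at 6 h. Among all genes, 38.9% rose and 38.5% fell. Subunits of the same complex moved apart. Rpa1, the large subunit of the complex that coats single-stranded DNA, had 14.69, 14.49, 14.49 and 14.48 after SAHA 6 h, 13.79, 13.83, 13.82 and 13.89 after SAHA 2 h, and 13.19, 13.31, 13.24 and 13.22 in DMSO. The groups stood well apart in the order of exposure. It was 2.46-fold higher at 6 h, 1.30 ± 0.06 (adjusted p 1.36e-10), and 0.59 ± 0.06 at 2 h (adjusted p 1.178e-06). Rpa2 did not pass at 6 h with its brightest probe (0.15, 95% confidence interval -0.01 to 0.32; it passed without array 2, adjusted p 0.02705), whereas 2 dimmer probes gave 0.30 and 0.43 and did. Rpa3 fell by 0.21 at 6 h (adjusted p 0.03351), a call lost without array 1, 3, 10, 11 or 12 (adjusted p 0.05051 to 0.1072).

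Rfc1, the large subunit of the clamp loader, had 11.61, 11.56, 11.64 and 11.59 after SAHA 6 h, 11.12, 11.13, 11.04 and 11.03 after SAHA 2 h, and 10.86, 10.85, 10.80 and 10.94 in DMSO, with no overlap. It rose by 0.74 ± 0.05 at 6 h (1.67-fold, adjusted p 1.129e-08) and by 0.22 ± 0.05 at 2 h (adjusted p 0.002399). Rfc5, a small subunit, had 9.71, 9.55, 9.68 and 9.56 after SAHA 6 h, 9.82, 9.91, 10.08 and 10.11 after SAHA 2 h, and 10.40, 10.29, 10.27 and 10.44 in DMSO. It ran the opposite way, also without overlap, at -0.73 ± 0.08 at 6 h (1.65-fold lower, adjusted p 6.706e-07) and -0.37 ± 0.08 at 2 h (adjusted p 0.0007145). A dimmer Rfc5 probe gave -0.31 at 6 h and 0.01 at 2 h, and the 2 h call was lost on the mean of the probes (adjusted p 0.08934) and without normalisation between arrays (-0.15, adjusted p 0.5241). Rfc4 rose by 0.35 at 6 h (adjusted p 0.003664; 0.1182 without normalisation between arrays), and Rfc2 and Rfc3 passed in no comparison, with 6 h intervals of -0.13 to 0.15 for Rfc2 and -0.16 to 0.36 for Rfc3. On the authors' normalised values Rfc2 did pass at 2 h (-0.15, adjusted p 0.03849, and 0.01928 with the replicate number as a block) and for 6 h against 2 h (0.18, adjusted p 0.01397, and 0.006125 with the block). Rfc4 was also higher at 6 h than at 2 h (adjusted p 0.02968), a call lost without array 5, 6, 11 or 12 (adjusted p 0.0617 to 0.09965) and a difference that was -0.002 without normalisation between arrays.

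Pcna, the sliding clamp, had 9.69, 10.09, 9.81 and 9.88 after SAHA 6 h, 9.36, 9.41, 9.55 and 9.71 after SAHA 2 h, and 9.52, 9.38, 9.94 and 9.39 in DMSO. The groups overlapped, with array 3 in DMSO inside the 6 h range. The rise at 6 h, 0.31 ± 0.13 (adjusted p 0.03757), was lost without array 1, 2, 4, 10 or 12 (adjusted p 0.06688 to 0.1168), and that against 2 h, 0.36 ± 0.13 (adjusted p 0.02249), without array 5, 6 or 10 (adjusted p 0.05828 to 0.07255). Lig1, the ligase that joins lagging-strand fragments, fell by 0.36 at 6 h (adjusted p 7.769e-05), with no overlap. At 2 h it was lower by 0.17 (adjusted p 0.02364) in overlapping groups, a call lost without array 2, 3, 4, 6 or 8 (adjusted p 0.05005 to 0.06524) and a direction that turned to 0.05 without normalisation between arrays. A dimmer Lig1 probe gave -0.25 at 6 h and -0.13 at 2 h without passing. Another, above background on 7 of 12 arrays, gave -0.48 at 6 h, which passed, and -0.10 at 2 h, which did not. Fen1, the nuclease that trims those fragments, rose by 0.17 at 6 h (adjusted p 0.02004) and 0.18 at 2 h (adjusted p 0.0229). The 6 h call of Fen1 was lost without array 3 or 10 (adjusted p 0.05448 to 0.05707) and the 2 h call without array 3, 5 or 7 (adjusted p 0.06452 to 0.07477).

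**Figure D5:**
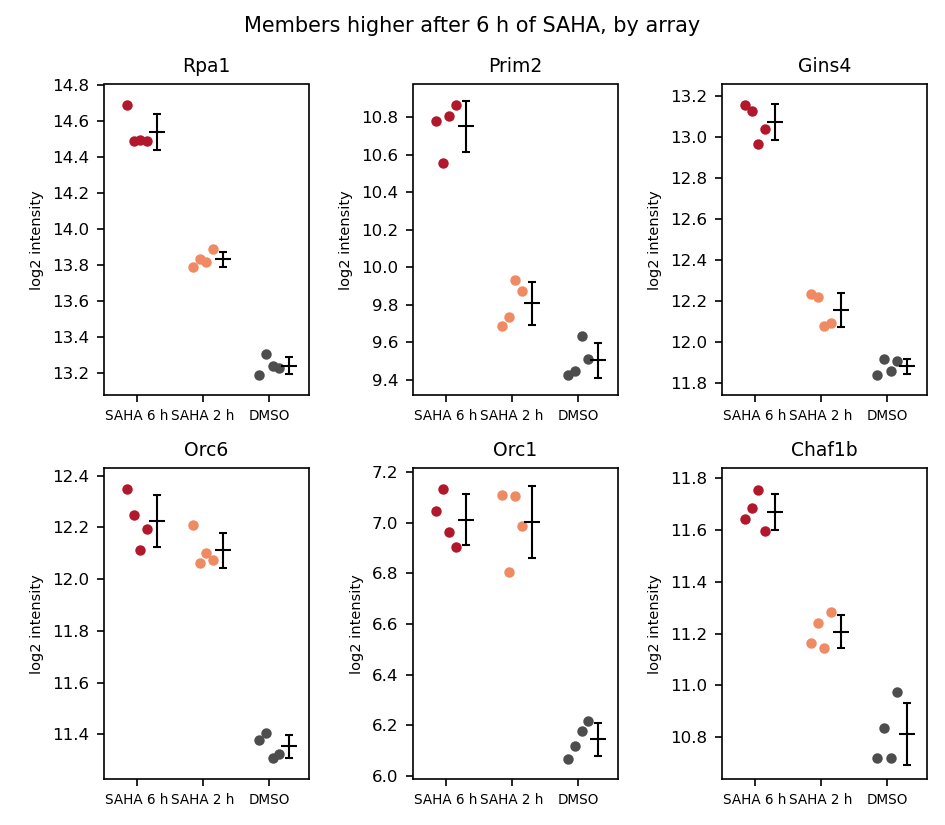
Log2 intensity on each array after SAHA 6 h, SAHA 2 h and DMSO for 6 genes that were higher at 6 h, with the mean and SD of the 4 arrays beside the points. Rpa1, Prim2, Gins4 and Chaf1b rise further between 2 h and 6 h, whereas the SAHA groups of Orc1 and of Orc6 overlap, both above DMSO.

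Chromatin assembly and DNA methylation factors that travel with the fork also divided. Chaf1b, a subunit of the chromatin assembly factor that deposits histones on new DNA, had 11.64, 11.69, 11.76 and 11.60 after SAHA 6 h, 11.16, 11.24, 11.14 and 11.28 after SAHA 2 h, and 10.72, 10.84, 10.72 and 10.97 in DMSO. All groups were apart, at 0.86 ± 0.07 at 6 h (1.81-fold, adjusted p 3.763e-08) and 0.40 ± 0.07 at 2 h (adjusted p 0.0001746). Chaf1a, the large subunit of the same complex, was 0.50 ± 0.09 higher at 6 h (adjusted p 0.0001462). Its rise at 2 h (0.23, adjusted p 0.03676) was lost without array 2, 3, 4, 6 or 8 (adjusted p 0.05067 to 0.1102), and its further rise from there (0.27, adjusted p 0.01806) without array 5, 9 or 12 (adjusted p 0.05032 to 0.06055).

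Uhrf1, which reads hemimethylated DNA behind the fork and brings in Dnmt1, had 12.32, 12.41, 12.21 and 12.13 after SAHA 6 h, 12.35, 12.28, 12.31 and 12.32 after SAHA 2 h, and 12.98, 12.94, 12.78 and 12.79 in DMSO. All 8 SAHA arrays lay below DMSO, and the SAHA groups overlapped. The change was -0.60 ± 0.07 at 6 h (1.52-fold lower, adjusted p 2.281e-06) and -0.56 ± 0.07 at 2 h (adjusted p 1.056e-05; -0.30 and an adjusted p of 0.1708 without normalisation between arrays). Dnmt1, the maintenance methyltransferase, had 10.77, 11.11, 11.03 and 10.89 after SAHA 6 h, 10.76, 10.70, 10.92 and 10.86 after SAHA 2 h, and 10.68, 10.63, 10.86 and 10.83 in DMSO. Its groups overlapped, and the rise of 0.20 ± 0.08 at 6 h (adjusted p 0.03834) was lost without array 1, 2, 10 or 11 (adjusted p 0.09291 to 0.1211). E2f1, an activating E2F factor, had 11.63, 11.69, 11.62 and 11.55 after SAHA 6 h, 11.18, 11.19, 11.10 and 10.95 after SAHA 2 h, and 11.15, 11.26, 11.13 and 11.14 in DMSO. The 6 h arrays stood above all others, by 0.45 ± 0.06 against DMSO (adjusted p 1.456e-05), and the 2 h and DMSO arrays overlapped.

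Set side by side, the 3 comparisons gave these courses, which are descriptions since the comparisons share arrays. Dut, Cdc6, Gins4, Pola2, Prim2, Rfc1, Rpa1, Chaf1a and Chaf1b were called higher in each. Without normalisation between arrays Gins4, Prim2 and Rpa1 still were, and the others lost the 6 h against 2 h call (adjusted p 0.2273 to 0.9761). Dut lost that call also on the mean of its probes and on its dimmer probe, and with the dimmer probe the 2 h call too. Tk1, Rrm1, Rrm2, Mcm5, Rfc5, Lig1 and Dbf4 were called lower in each. With the dimmest probe of each gene Rfc5 and Dbf4 turned at 2 h, and Lig1 lost the calls at 2 h and for 6 h against 2 h. Mcm5 and Lig1 turned at 2 h without normalisation between arrays. Without that normalisation Rrm1, Rfc5 and Dbf4 lost the 2 h call too (adjusted p 0.06941 to 0.7223). Pcna, Pold2, Pole, Prim1, Rfc4, E2f1 and Cdc7 were higher at 6 h than in both other groups and did not pass at 2 h against DMSO. Without normalisation between arrays all 7 lost the 6 h against 2 h call (adjusted p 0.2139 to 0.9939), and Pcna, Pold2, Prim1 and Rfc4 that against DMSO too (adjusted p 0.05101 to 0.2523). Mcm2, Mcm6, Mcm7, Gins2, Rfc2, Rfc3 and Rpa2 passed in none of the 3, of which Mcm6, Rfc2 and Rpa2 passed somewhere under the alternatives given above or with the mean of the probes. The groups did not overlap in 28 of the 46 genes at 6 h (60.9%, where 70.8% of all genes did not), in 26 at 2 h (56.5%, where 53.4% did not) and in 26 between the exposures (56.5%, where 55.4% did not).

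Neighbouring genes of the pathway, from lists that hold no gene of the 49, moved in both directions, as all genes did (38.9% higher and 38.5% lower at 6 h, 77.4% called). The shares called in these lists at 6 h were 70% to 76.5%, near that background, so their counts are not results about the lists. Of 21 measured genes of the fork and licensing machinery outside the set (26 listed), 9 rose and 6 fell at 6 h. Rnaseh2b, an accessory subunit of the nuclease that removes RNA from DNA, averaged 8.11 ± 0.12 after SAHA 6 h, 9.88 ± 0.07 after SAHA 2 h and 10.18 ± 0.07 in DMSO (SD, n = 4 each), a change of -2.06 at 6 h. Rnaseh2a, the catalytic subunit of that enzyme, went the other way, by 1.23. Pole4, a small subunit of polymerase epsilon, and Pclaf, a factor that binds the clamp, changed by -1.23 and -1.08.

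Of 30 measured nucleotide synthesis genes outside the set (34 listed), 12 rose and 10 fell at 6 h, 6 of them rising and 1 falling by at least 1.5-fold. Ppat, which catalyses the committed step of purine synthesis, averaged 10.36 ± 0.11 after SAHA 6 h, 9.97 ± 0.04 after SAHA 2 h and 8.79 ± 0.08 in DMSO (SD, n = 4 each), a change of 1.57 at 6 h. Tk2, the mitochondrial thymidine kinase, rose by 1.18 at 6 h, where cytosolic Tk1 fell. Shmt1, which supplies one-carbon units for thymidylate, rose by 1.18, and Dtymk, the kinase after Tk1 and Tyms, changed by -0.71.

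Of 11 measured checkpoint genes (14 listed), 4 rose and 4 fell at 6 h, and 3 rose and 6 fell at 2 h (81.8% called, where 58.5% of all genes were). Rad9a and Hus1 belong to the same clamp and moved apart, 0.73 and -0.49 at 6 h. Claspin (Clspn), which carries the signal from stalled forks, was lower at 2 h (-0.91) than at 6 h (-0.50), and Etaa1, an activator of the checkpoint kinase ATR, changed by -0.47 at 6 h. Of 17 measured genes of the E2F network and S-phase entry (23 listed), 6 rose and 7 fell at 6 h. At 2 h, 7 rose and 8 fell (88.2% called, where 58.5% of all genes were). Rb1, the retinoblastoma protein that restrains E2F, was 1.14 higher at 6 h, Tfdp2, a partner of E2F, 1.04 higher, E2f2 1.41 higher and E2f3 -0.68. Of 10 measured genes of replication-linked chromatin and methylation (13 listed), 4 rose and 3 fell at 6 h: the histone chaperones Asf1b and Asf1a by 0.97 and 0.40, the histone acetyltransferase Hat1 by 0.47 and Rbbp4, a histone-binding subunit, by 0.52. All the neighbouring genes named here passed at 6 h.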

How the data were processed

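The deposited bead-array table holds, per the file headers, a raw intensity per probe and array with a detection p-value, and was deposited as non-normalized data. The authors' normalised intensity values were used only as an alternative; how they were made is not given in the sources used here. From the raw values, background was corrected by normexp on the detection p-values with an offset of 16, followed by log2 and quantile normalisation (limma 3.58.1, R 4.3.3). Of 45281 probes, 34885 have 1 symbol, 18 several and 10378 none in GEO's platform annotation, updated through RefSeq; 16431 were detected on at least 4 of 12 arrays, 14136 of them with 1 symbol, and the brightest probe of each of 9153 genes was tested. limma's lmFit and eBayes over 3 groups gave 3 comparisons, with Benjamini-Hochberg adjustment over all genes; errors of changes are the fit's SE. The script was tested on simulated data. Genes and lists were chosen with earlier results of these data known. Array values are given for genes called at least 1.5-fold without overlap, up to 8 each way, and for genes fixed by name; neighbouring genes are the 4 with the smallest p of each list. The titles of the samples behind the authors' normalised values carry replicate numbers that the groups share, and same-numbered samples deviated together with correlations of 0.17 to 0.394 between 2 h and DMSO, 0.168 to 0.348 between 6 h and 2 h, and 0.0134 to 0.121 between 6 h and DMSO (4 pairs each; 15 of 24 best matches had the sample's own number). All 4 were over 0.1 in 2 comparisons, which were read as paired from the data, since the labels do not say what a number marks; the raw columns carry no such numbers, so the block was fitted on the authors' values only. Slide and scan date are not given in the sources used here. The closing section gives the effect of the alternatives.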

Additional observations from a re-analysis of the deposited data

Results flagged for a closer look

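In 7 of the 138 sets of 4 arrays examined, 1 array stood far from the other 3, where chance gives about 1 in 20. After SAHA 6 h, array 9 had 11.05 for Rrm1 (others 10.86 to 10.89) and 14.69 for Rpa1 (others 14.48 to 14.49), and array 12 had 9.44 for Pole (others 9.36 to 9.37). After SAHA 2 h, array 8 had 9.88 for Mcm10 (others 10.1 to 10.13) and 10.68 for Chaf1a (others 10.42 to 10.46), and array 5 had 10.2 for Gins2 (others 10.55 to 10.6). In DMSO, array 2 had 11.26 for E2f1 (others 11.13 to 11.15).

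In 7 genes the changes at 6 h and at 2 h had opposite signs and the difference between the exposures passed the test. The difference, 6 h minus 2 h, was -0.574 for Tyms, with -0.551 at 6 h and 0.0229 at 2 h. It was 0.522 for E2f1 (0.455 and -0.0677), 0.534 for Gins3 (0.0292 and -0.504) and 0.423 for Cdc45 (0.0958 and -0.327). It was 0.478 for Prim1 (0.448 and -0.0307), 0.361 for Pcna (0.308 and -0.0524) and -0.172 for Cdt1 (-0.00969 and 0.163). In none of the 7 did both changes against DMSO pass.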

How the results depend on the processing

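Of the 138 changes of the 46 genes, 89 were called, and 42 of these kept their call and direction under every alternative run, Tk1, Rrm2 and Rpa1 in all 3 comparisons among them. Leaving out normalisation between arrays moved most. It shifted the median of all genes to 0.185 at 2 h and -0.199 for 6 h against 2 h, with 2529 genes higher and 941 lower at 2 h (2548 and 2810 with it) and 725 higher and 2792 lower for 6 h against 2 h (3143 and 2599). Of the 46 genes, it left 14 called at 2 h (26 with it), 2 of them lower (14) and 1 at least 1.5-fold lower (3). At 6 h against DMSO it left 23 called (34), 14 higher (21) and 9 lower (13), and reversed none. For 6 h against 2 h it left 13 called (29), 3 of them higher (20), with 6 at least 1.5-fold lower (3). It reversed Mcm4 (0.0994), Mcm5 (0.04813) and Lig1 (0.04736) at 2 h, and Mcm10 (-0.03585), Pold1 (-0.02925) and Rfc4 (-0.00213) for 6 h against 2 h. The dimmest kept probe of each gene gave 9 lower at 2 h (14 with the brightest) and reversed Rfc5 (0.01092) and Dbf4 (0.01653) there; with it the 6 h change of Dbf4 was -0.1951 and did not pass. With no filter on dim probes 19057 genes were tested, and 27.5% of them were called at 2 h (58.5% with it), 39.9% at 6 h (77.4%) and 30.2% for 6 h against 2 h (62.7%). The cause was not tested beyond what each alternative changes by construction.

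Leaving out 1 array at a time, 22 to 27 of the 46 genes were called at 2 h, 27 to 33 at 6 h and 25 to 29 for 6 h against 2 h.

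The authors' normalised values carry replicate numbers that groups share, and a fit on them with the replicate block left the member calls nearly as they were: 27 of the 46 genes were called at 2 h (27 without the block), 33 at 6 h (32) and 31 for 6 h against 2 h (30). The block lost no member call made on those values without it. It restored the calls of Rpa3 at 6 h (adjusted p 0.02674, and 0.0516 without it) and Cdt1 for 6 h against 2 h (0.03546, and 0.05943), both called on the raw values. Against the raw values, the block fit lost Orc2 at 6 h (0.06597) and gained Rfc2 at 2 h (0.01928) and Rfc2 (0.006125) and Orc6 (0.01508) for 6 h against 2 h. On the authors' values 1 gene was called at least 1.5-fold higher at 2 h (3 on the raw values), and 1 with the block. With the block 64.2% of all genes were called at 2 h and 79.8% at 6 h, against 60.1% and 77.6% without it.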
